A study of Homo sapiens with 9 samples.

Results

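Cells carrying the hairpin shSNHG1#2 were compared with cells carrying the control hairpin shNC, each with 3 RNA sequencing libraries, 6 of the 9 libraries of the study. The libraries were taken by their group labels alone, and the comparison covers all 23603 rows with a gene symbol of the 27407 rows of the table. All 9 libraries carry the label Weri-RB1/CRP, a line of retinoblastoma, the childhood tumour of the retina, that resists carboplatin and was kept in RPMI 1640 with fetal bovine serum. By the labels the resistant background is thus shared by shNC, shSNHG1#2 and the third group, which carried another hairpin against the same target, shSNHG1#1. No library is labelled as the parental line or as exposed to carboplatin, and the labels do not say whether a hairpin line is a clone or a pool, or how long after delivery the RNA was taken. The labels do not describe replicates as independent cultures, and p-values then speak only of the spread among these libraries, which may be technical.

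SNHG1 is a long noncoding RNA gene whose introns carry small nucleolar RNAs. A short hairpin RNA is cut by the cell into a small RNA that guides an Argonaute protein to transcripts of matching sequence, and it can also act on transcripts that match only in the seed, which is why such studies use more than 1 hairpin. SNHG1 was not analysed here, so the knockdown itself has no check here, and the groups follow the labels. The comparison asks which transcripts differ in a line labelled as resistant when this hairpin is present.

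Some values of the libraries bear on all that follows. Total estimated counts were 21502093 to 21606498 per library. The share of counts in features without a symbol was 8.48% ± 0.30 (SD, n = 3) in shNC and 14.1% ± 0.161 (SD, n = 3) in shSNHG1#2. Markers of the labelled tissue were mostly absent: 11 of 15 cone photoreceptor genes and 18 of 20 rod and retina genes averaged below 1 FPKM (a level of fragments corrected for transcript length and library total) in each group. CRX, the transcription factor that defines photoreceptors, reached at most 0.02 FPKM in the 6 libraries, while summed FPKM of 46 epithelial keratin and junction genes was 3013 to 3049 in shNC and 2969 to 3120 in shSNHG1#2. The identity of the cells was not tested, and the line is named here by its label alone.

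Transcripts of cell types foreign to a cultured line were also present at low levels, and their summed counts were lower with shSNHG1#2. Where these transcripts came from was not tested. In bulk RNA, fewer cells of a type, less RNA per cell and a source other than cells of the culture cannot be told apart. The 4 short lists used here were put together after such genes had been seen. The summed counts of 12 genes of lung alveolar epithelium were 25.6 to 37.9 CPM (counts scaled to a common library total) in shNC and 6.2 to 6.6 CPM in shSNHG1#2, and in shSNHG1#1 they were 24.7, 26.0 and, in replicate 1, 530 CPM. SFTPC, which encodes a surfactant protein of the lung, had 114, 115 and 154 counts in shNC and 3, 0 and 0 in shSNHG1#2, and SFTPA2 had 118, 117 and 188 counts in shNC and 0 in each shSNHG1#2 library. Other members of that list did not go this way: NAPSA, a protease, had 36.5 to 43.5 counts in shNC and 39 to 57.2 in shSNHG1#2, and AGER, a receptor of alveolar cells, 60.2 to 73.5 and 68.2 to 84.7. In FPKM, every shSNHG1#2 library lay below every shNC library in 7 of the 12. For 11 neutrophil genes the sums were 13.3 to 17.9 CPM in shNC and 1.18 to 1.7 CPM in shSNHG1#2, and 11 of 11 members were lower without overlap. The granulocyte receptor gene CSF3R had 105, 103 and 110 counts in shNC and 10.2, 8.63 and 13 counts in shSNHG1#2. Macrophage genes were at 1.57 to 2.01 against 0.524 to 1.25 CPM, with 6 of 8 members lower in that sense, and blood and vessel genes at 5.95 to 9.69 against 0.714 to 1.43 CPM, with 9 of 10. Over all tested genes with a symbol, the FPKM of these groups did not overlap, in either direction, for 54.4%. Replicate 1 of shSNHG1#1 stood apart from all other libraries in these genes. The numbers of genes and list members called between the hairpins are therefore given with and without it. The part of these transcripts in any other result was not tested.

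**Figure D1:**
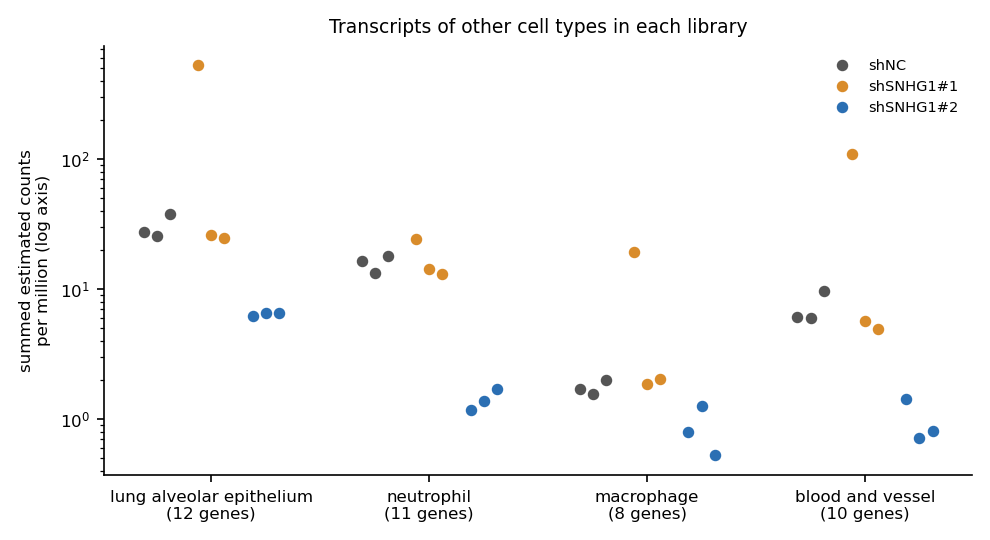
Summed estimated counts in CPM (log axis) of 4 short lists of marker genes in each of the 9 libraries, with 1 point per library. The 3 shSNHG1#2 libraries lie lowest in each list, and replicate 1 of shSNHG1#1 reaches 530 CPM for the lung alveolar genes.

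About as many genes rose as fell with shSNHG1#2, and most of the differences were small. At an adjusted p below 0.05 (edgeR quasi-likelihood F test, Benjamini-Hochberg), 8435 of 17573 tested genes with a symbol were called, 48.0% of them. Of these 4288 were higher (24.4% of those tested) and 4147 lower (23.6%). The median fold of a called gene was 1.31, and 70.4% of the called genes differed by less than 1.5-fold. A difference of at least 2-fold was called for 900 genes (5.12%), 516 of them higher (2.94%) and 384 lower (2.19%), and one of at least 8-fold for 18 higher and 23 lower. The FPKM values of the groups did not overlap for 54.4% of tested genes. A fold from FPKM can differ from the log2 fold change from counts, since FPKM also divides by the length of the transcripts estimated in each library and by totals. With TMM scaling (trimmed mean of M values) the median log2 fold change of all tested genes was 0.01. With RLE factors, another scaling, 4172 genes with a symbol were called higher and 4243 lower, and with DESeq2 4039 higher and 4176 lower. Which direction held more calls is therefore not fixed. Scaling by library totals alone moved the called genes with a symbol to 5230 higher and 3309 lower, 61.2% higher against 50.8% with TMM. Scaling by the totals of features with a symbol, tried after the data had been seen, was fitted on those features alone. It gave 6905 higher and 2414 lower (74.1% higher against 50.8% with TMM) and raised their median log2 fold change to 0.17. Each direction below is therefore relative to the scaling. With that scaling the median changed sign for the TGF-beta, receptor tyrosine kinase, Kruppel-like factor, mesenchymal, integrin and small RNA lists, and already with library totals for the glycogen, cholesterol, NRF2, autophagy, ERK feedback, keratin and iron lists, so no direction is given for these lists. EPAS1, CA9, BNIP3, VEGFA, LDHA, HK1, PFKM, ENO3, E2F1 and ERCC1 lie outside the rule that chose the named genes and were picked after their values were seen.

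The direction depended on the level of the gene. Among 534 genes with a mean of at least 100 FPKM over the 6 libraries, 76.2% were called, 104 higher and 303 lower, and their median log2 fold change was -0.16. Among 4510 genes below 1 FPKM 20.4% were called, 634 higher and 286 lower, with a median of 0.11. A gene of low level can enter the test through 1 group alone. Differences of at least 2-fold followed the same order, with 2 higher and 37 lower in the top class and 321 higher and 131 lower in the bottom class. The most abundant transcripts were among those that fell. GAPDH, the glycolytic enzyme often used as a reference gene, stood at 5141, 5212 and 4991 FPKM in shNC and 2801, 2744 and 2714 FPKM in shSNHG1#2 (log2 fold change -0.96, SE 0.03, adjusted p = 1.8e-09). The cytoplasmic actin gene ACTG1 stood at 2356, 2349.6 and 2397 FPKM in shNC and 1389, 1352 and 1310.2 FPKM in shSNHG1#2 (log2 fold change -0.88, adjusted p = 4.7e-09). In both genes every shSNHG1#2 library lay far below every shNC library. FTH1, the ferritin heavy chain gene with the highest level in shNC, stood at 8545, 8468 and 8499.6 FPKM in shNC and 6931, 6533 and 6365 FPKM in shSNHG1#2 (-0.43 on the log2 scale), also without overlap.

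**Figure D2:**
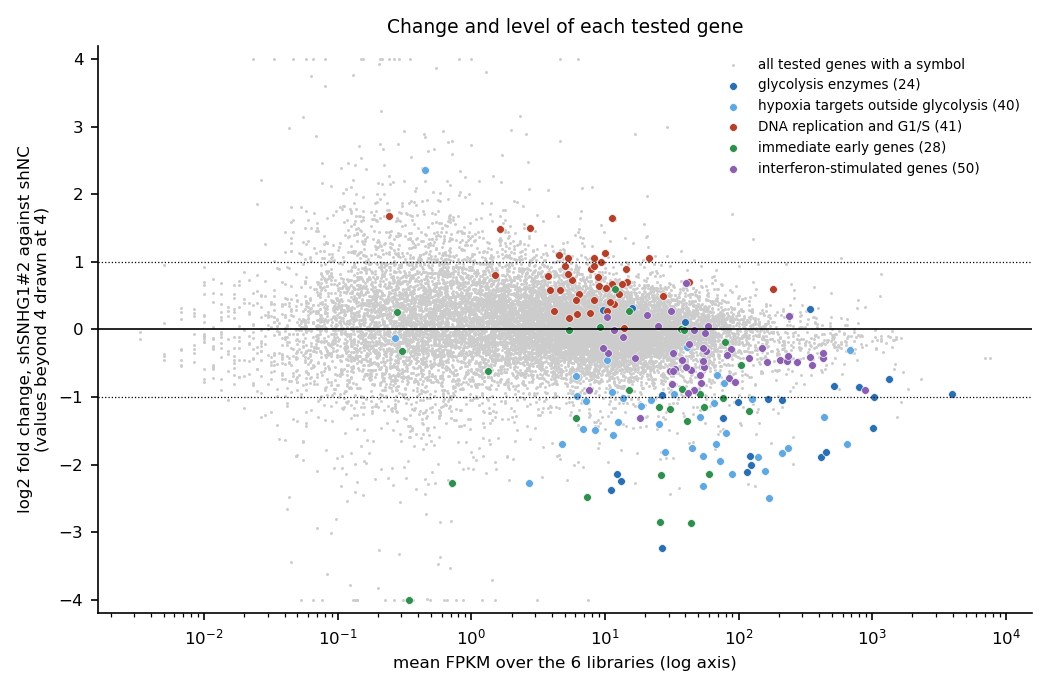
Log2 fold change of shSNHG1#2 against shNC plotted against the mean FPKM over the 6 libraries (log axis) for each tested gene with a symbol, with values beyond 4 drawn at 4. Coloured points are members of 5 gene lists, and dotted lines mark a 2-fold difference. Glycolysis and hypoxia genes lie mostly below 0 at high levels, and DNA replication genes lie above 0 at middle levels.

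Genes that cells use in low oxygen and to break down sugar gave the lowest medians among the lists with at least 10 tested members. Cells sense oxygen through prolyl hydroxylases that mark the HIF alpha subunits for destruction, and stable HIF binds short elements around the core ACGTG near its target genes, which serve glucose uptake, glycolysis, pH control, matrix and vessel growth. Of 24 tested glycolysis genes 20 were lower and 4 higher, with a median log2 fold change of -1.06, and of 40 hypoxia targets outside glycolysis 38 were lower and 1 higher, with a median of -1.39. Over all tested genes with a symbol 23.6% were lower.

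Promoters of 3 genes that fell are shown because each holds the ACGTG core more than once. They are the 250 bases before the transcript start from RefSeq on GRCh38.p14, written in the sense of the gene with each match of ACGTG or its reverse CACGT in capitals, and overlapping matches as 1 run. ALDOC (aldolase C) lies at chr17:28576896-28577145 on the minus strand, PGK1 (phosphoglycerate kinase) at chrX:78103998-78104247 on the plus strand and BHLHE40 (a repressor of the circadian clock) at chr3:4979187-4979436 on the plus strand.
ALDOC: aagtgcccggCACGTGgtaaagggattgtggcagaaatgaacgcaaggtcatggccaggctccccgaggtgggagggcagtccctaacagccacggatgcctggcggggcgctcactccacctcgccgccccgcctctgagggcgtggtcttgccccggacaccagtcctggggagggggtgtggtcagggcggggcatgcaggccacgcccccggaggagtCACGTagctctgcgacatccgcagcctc
PGK1: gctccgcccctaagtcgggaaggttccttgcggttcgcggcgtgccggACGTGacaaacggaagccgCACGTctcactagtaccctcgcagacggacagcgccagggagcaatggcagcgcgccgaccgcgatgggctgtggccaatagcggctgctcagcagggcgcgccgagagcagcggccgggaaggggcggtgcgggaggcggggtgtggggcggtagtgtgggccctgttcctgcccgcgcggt
BHLHE40: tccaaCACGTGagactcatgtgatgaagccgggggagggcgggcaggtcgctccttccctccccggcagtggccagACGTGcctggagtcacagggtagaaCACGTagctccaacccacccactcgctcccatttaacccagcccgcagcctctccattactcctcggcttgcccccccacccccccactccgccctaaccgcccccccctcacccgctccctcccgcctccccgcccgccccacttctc
ALDOC has matches 240, 239 and 28 bases before the start, PGK1 at 202 and 183 bases, and BHLHE40 at 245, 244, 174 and 149 bases. Pairs 1 base apart are the palindrome CACGTG read on both strands. Over all 13372 tested genes with a listed promoter, 22.2% hold ACGTG, and of 23 glycolysis promoters 8 do (34.8%). Of the hypoxia targets outside glycolysis 31 of 40 had a listed promoter, and 18 of these hold it (58.1%). With 9 members lacking a listed promoter the share of the whole list is not known. A match is a run of letters and says nothing on binding.

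ALDOC stood at 49.4, 49.6 and 46.9 FPKM in shNC and 5.15, 5.24 and 5.09 FPKM in shSNHG1#2 (log2 fold change -3.24, adjusted p = 8.7e-11), with no overlap between the groups.

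Genes from glucose uptake to lactate were lower. The glucose transporter gene SLC2A1 stood at 182, 182 and 191 FPKM in shNC and 46.5, 44.9 and 44.2 FPKM in shSNHG1#2 (log2 fold change -2.11, SE 0.03, adjusted p = 2.2e-11). PFKFB3, whose product makes the main activator of phosphofructokinase, stood at 193, 194 and 201 FPKM in shNC and 50.04, 49.8 and 51.6 FPKM in shSNHG1#2 (log2 fold change -2.01, SE 0.03, adjusted p = 8.2e-12). PGK1 stood at 721, 692 and 696 FPKM in shNC and 204, 205 and 208 FPKM in shSNHG1#2 (log2 fold change -1.81, SE 0.03, adjusted p = 8.2e-12). In each of these genes the libraries of a group lay close together and the groups far apart. GPI, the isomerase of the second step, stood at 641, 645 and 666 FPKM in shNC and 187, 184 and 179 FPKM in shSNHG1#2 (a 3.72-fold fall), and the lactate dehydrogenase gene LDHA at 1395, 1355 and 1299.8 FPKM in shNC and 739, 673 and 708 FPKM in shSNHG1#2 (a 2.0-fold fall). The members that rose were HK1 (0.11 on the log2 scale), PFKM (0.31), ENO3 (0.29) and LDHB. LDHB, the lactate dehydrogenase subunit of oxidative tissues, stood at 298, 301 and 301 FPKM in shNC and 373, 391 and 402 FPKM in shSNHG1#2 (log2 fold change 0.31, adjusted p = 6.6e-06), against the direction of LDHA.

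Several glycogen genes fell with them. PPP1R3B and PPP1R3C, which tether a phosphatase to glycogen, and GYS1 and GBE1, the synthase and the branching enzyme, fell 3.91-fold, 3.56-fold, 2.5-fold and 2.34-fold. PPP1R3B stood at 16.4, 16.9 and 16.9 FPKM in shNC and 4.2, 4.61 and 4.33 FPKM in shSNHG1#2 (log2 fold change -1.97, SE 0.04, adjusted p = 8.9e-11). PYGB, the phosphorylase that breaks glycogen down, rose from 28.2, 28.3 and 29.7 FPKM to 41.7, 41.5 and 42.2 FPKM (log2 fold change 0.48, adjusted p = 8.2e-07). Of 20 tested glycogen genes 8 fell and 3 rose.

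Hypoxia targets outside glycolysis fell across their roles. PLOD2, a collagen lysyl hydroxylase, stood at 326, 323 and 325 FPKM in shNC and 94.2, 96.2 and 98.5 FPKM in shSNHG1#2 (log2 fold change -1.83, SE 0.03, adjusted p = 2.2e-11). ANGPTL4, an inhibitor of lipoprotein lipase, stood at 211, 216 and 229.9 FPKM in shNC and 61.8, 60.3 and 59.4 FPKM in shSNHG1#2 (a 3.71-fold fall), and CA9, the carbonic anhydrase of the cell surface, at 45, 44.1 and 46.7 FPKM in shNC and 10.9, 10.8 and 11.9 FPKM in shSNHG1#2 (a 3.52-fold fall). The 3 genes showed no overlap between groups. BNIP3, a mitophagy receptor, fell 3.86-fold and VEGFA, the vessel growth factor, 2.13-fold. The member that rose was KISS1R, a receptor of low level, at 0.17, 0.23 and 0.26 FPKM in shNC and 0.70, 0.72 and 0.64 FPKM in shSNHG1#2 (log2 fold change 2.36, adjusted p = 0.0036).

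The sensing machinery itself moved in both directions. HIF1A, the alpha subunit, stood at 41.4, 40.03 and 39.5 FPKM in shNC and 136, 136 and 139 FPKM in shSNHG1#2 (log2 fold change 1.7, SE 0.04, adjusted p = 4.4e-10). EPAS1, the other main alpha subunit, stood at 81.4, 84.8 and 87.6 FPKM in shNC and 75.7, 75.8 and 76.3 FPKM in shSNHG1#2 (log2 fold change -0.22, adjusted p = 2.8e-04), a call that was lost with scaling by the totals of features with a symbol (-0.06, adjusted p = 0.13). EGLN3, a prolyl hydroxylase that is itself a HIF target, stood at 142, 143 and 149.8 FPKM in shNC and 34.4, 34.4 and 35.5 FPKM in shSNHG1#2 (log2 fold change -2.14, SE 0.04, adjusted p = 2.2e-11). CITED2, which competes with HIF for the coactivators CBP and p300, fell 2.68-fold, and CREBBP, the gene of CBP, fell 1.81-fold. Of 17 tested members 4 rose and 8 fell.

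**Figure D3:**
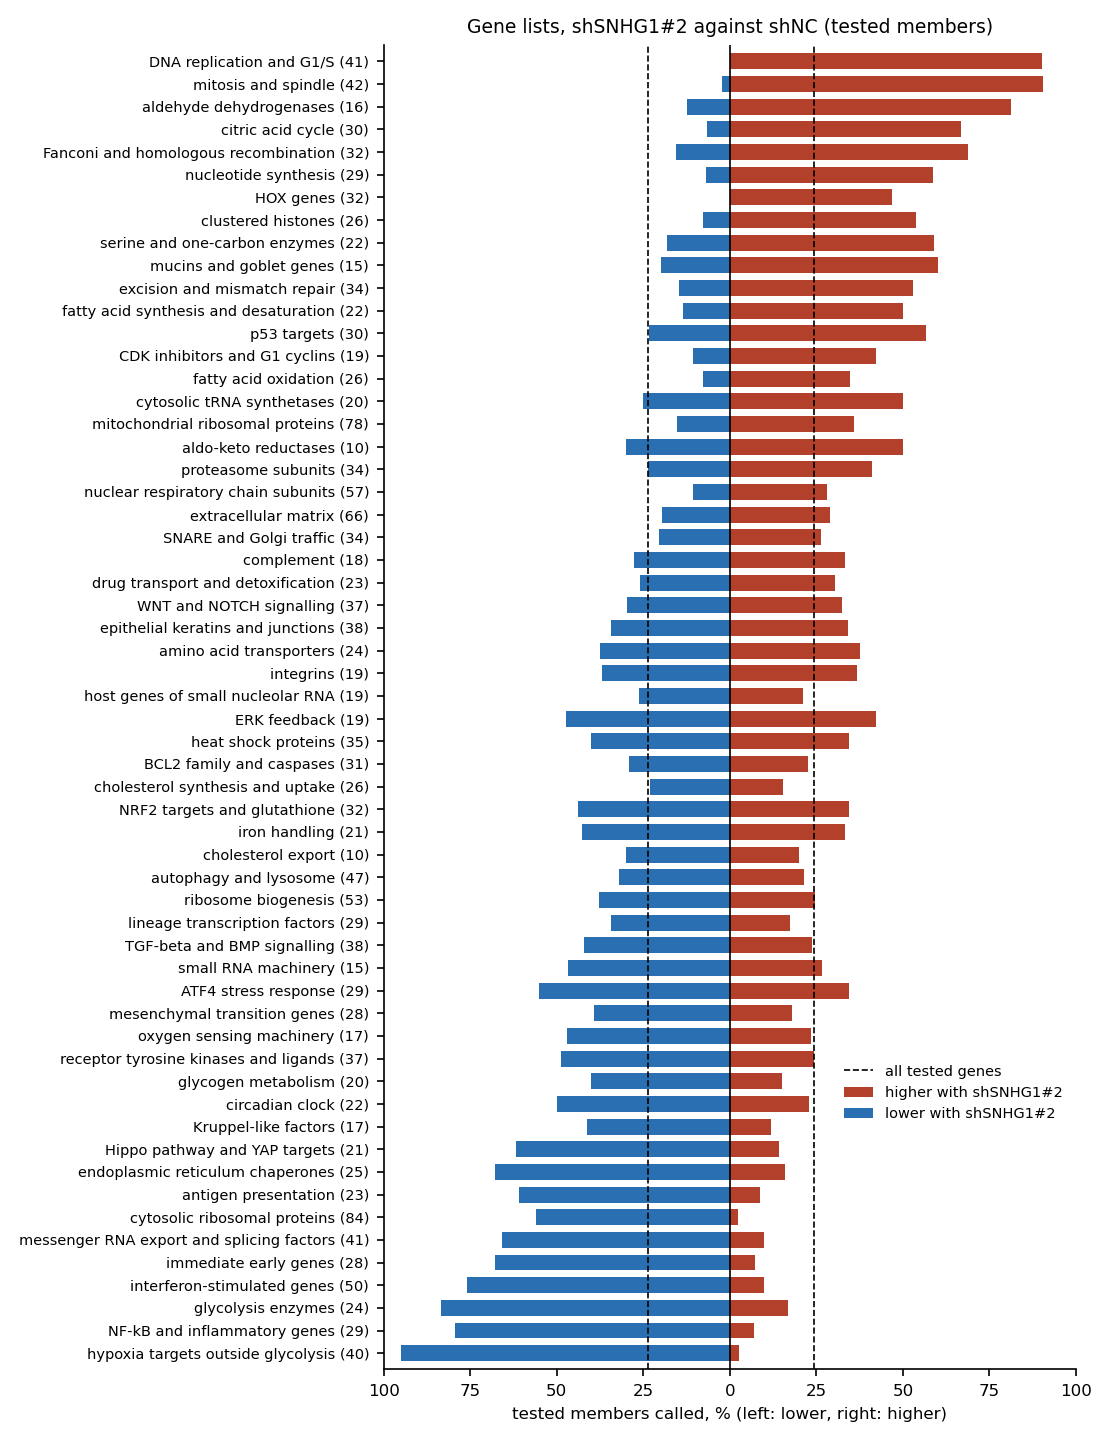
Share of tested members called lower (left) and higher (right) with shSNHG1#2 against shNC, with TMM scaling, for each list with at least 10 tested members outside cell type markers and gene classes (number tested in brackets). Dashed lines mark the shares over all tested genes with a symbol, 23.6% lower and 24.4% higher. Hypoxia targets and glycolysis lie at one end and DNA replication and mitosis at the other. Lists with medians near 0, among them glycogen, keratins and iron handling, change sign with another scaling.

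Genes of the citric acid cycle rose for the most part. The citric acid cycle and pyruvate entry list had 20 of 30 tested members higher and 2 lower, with a median log2 fold change of 0.27. IDH3A, the catalytic subunit of the cycle's isocitrate dehydrogenase, stood at 16.3, 15.8 and 16.1 FPKM in shNC and 25.6, 26.9 and 26.3 FPKM in shSNHG1#2 (log2 fold change 0.62, SE 0.04, adjusted p = 2.3e-07), and OGDH, of the oxoglutarate dehydrogenase complex, at 17.4, 18.1 and 18.9 FPKM in shNC and 28.3, 28.1 and 28.6 FPKM in shSNHG1#2 (log2 fold change 0.58, adjusted p = 1.4e-07). IDH1, the cytosolic isocitrate dehydrogenase, stood at 56.3, 54.4 and 55 FPKM in shNC and 89.1, 92.8 and 94.3 FPKM in shSNHG1#2 (log2 fold change 0.66, adjusted p = 9.9e-09). The kinases that switch pyruvate dehydrogenase off differed in direction. PDK1 stood at 17.6, 17.9 and 19.6 FPKM in shNC and 4.05, 3.15 and 3.82 FPKM in shSNHG1#2 (log2 fold change -2.38, SE 0.07, adjusted p = 9.5e-10), whereas PDK4 stood at 86.2, 87.1 and 86.4 FPKM in shNC and 123, 126 and 124 FPKM in shSNHG1#2 (log2 fold change 0.45, SE 0.03, adjusted p = 5.4e-07). In both kinase genes the groups were apart, PDK1 low and PDK4 high with shSNHG1#2.

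Respiratory chain and mitochondrial ribosome genes had medians near 0 with TMM scaling (0.07 and 0.04 on the log2 scale). Over all tested genes with a symbol 24.4% were higher and 23.6% lower. Of 57 tested nuclear respiratory chain subunits 16 were higher and 6 lower, with 35 not past the threshold. Of 78 mitochondrial ribosomal protein genes 28 were higher and 12 lower, with 38 not past it. With scaling by the totals of features with a symbol the higher and lower counts became 35 and 2, and 43 and 5. Fatty acid oxidation had 9 of 26 higher and 2 lower (18 and 0 with that scaling), among them CPT1A, the carnitine transferase that admits fatty acids to mitochondria, at 10.03, 9.7 and 10.5 FPKM in shNC and 14.2, 14.6 and 14.1 FPKM in shSNHG1#2 (log2 fold change 0.43, adjusted p = 3.3e-06).

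Single genes of lipid storage and synthesis went in both directions. PLIN2, which coats lipid droplets, stood at 195, 196 and 191 FPKM in shNC and 41.5, 43 and 40.5 FPKM in shSNHG1#2 (log2 fold change -2.29, SE 0.03, adjusted p = 8.4e-12), among the 15 lowest log2 fold changes of the comparison. DGAT2, which makes triglyceride, stood at 1.07, 1.09 and 0.87 FPKM in shNC and 4.24, 4.08 and 4.78 FPKM in shSNHG1#2 (log2 fold change 2.08, SE 0.11, adjusted p = 7.9e-08), among the 15 highest. Separation of the libraries was a condition for naming genes at these ends. Of 22 fatty acid synthesis genes 11 rose and 3 fell, or 19 and 1 with scaling by the totals of features with a symbol. FASN, the fatty acid synthase, stood at 14.5, 14.5 and 16.2 FPKM in shNC and 25.5, 24.2 and 23.5 FPKM in shSNHG1#2 (log2 fold change 0.63, adjusted p = 4.3e-06) and ACACA, which commits acetyl-CoA to it, rose 1.49-fold. SCD, the desaturase with the highest level among these named genes, went the other way, from 153, 152 and 153 FPKM to 118, 125 and 129 FPKM (log2 fold change -0.37, adjusted p = 1.5e-06). Cholesterol synthesis and uptake genes had 4 of 26 higher and 6 lower, but 5 higher and 4 lower with library totals.

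Nucleotide and serine pathways rose for the most part. Of 29 nucleotide synthesis genes 17 were higher and 2 lower (median 0.19), and of 22 serine and one-carbon genes 13 were higher and 4 lower (median 0.38). CAD, which starts pyrimidine synthesis, stood at 7.77, 8.01 and 8.11 FPKM in shNC and 14.3, 13.1 and 13.1 FPKM in shSNHG1#2 (log2 fold change 0.62, adjusted p = 2.5e-08). PSAT1, an aminotransferase of serine synthesis, stood at 27.8, 26.4 and 29.6 FPKM in shNC and 50.9, 55.3 and 56.1 FPKM in shSNHG1#2 (log2 fold change 0.88, SE 0.05, adjusted p = 1.0e-07). The shSNHG1#2 libraries were above all shNC libraries in both genes. An exception was MTHFD1L, a mitochondrial enzyme of the folate pathway, at 18.2, 17.4 and 18.3 FPKM in shNC and 10.3, 11.5 and 11.1 FPKM in shSNHG1#2 (log2 fold change -0.89, adjusted p = 6.2e-08). Among transporters of amino acids, SLC7A5, which carries leucine and other large neutral amino acids, fell from 245, 254 and 272 FPKM to 139.6, 136 and 139 FPKM (log2 fold change -0.98, adjusted p = 7.8e-09), and over the 24 tested transporters 9 rose and 9 fell. The tRNA synthetases were likewise mixed, with MARS, for methionine, at 22, 22.9 and 22.5 FPKM in shNC and 52.5, 53.2 and 49 FPKM in shSNHG1#2 (log2 fold change 1.16, adjusted p = 2.6e-09) and DARS, for aspartate, at 67.2, 69.95 and 68.3 FPKM in shNC and 35.8, 34.4 and 36.1 FPKM in shSNHG1#2 (log2 fold change -0.98, adjusted p = 3.2e-09).

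**Figure D4:**
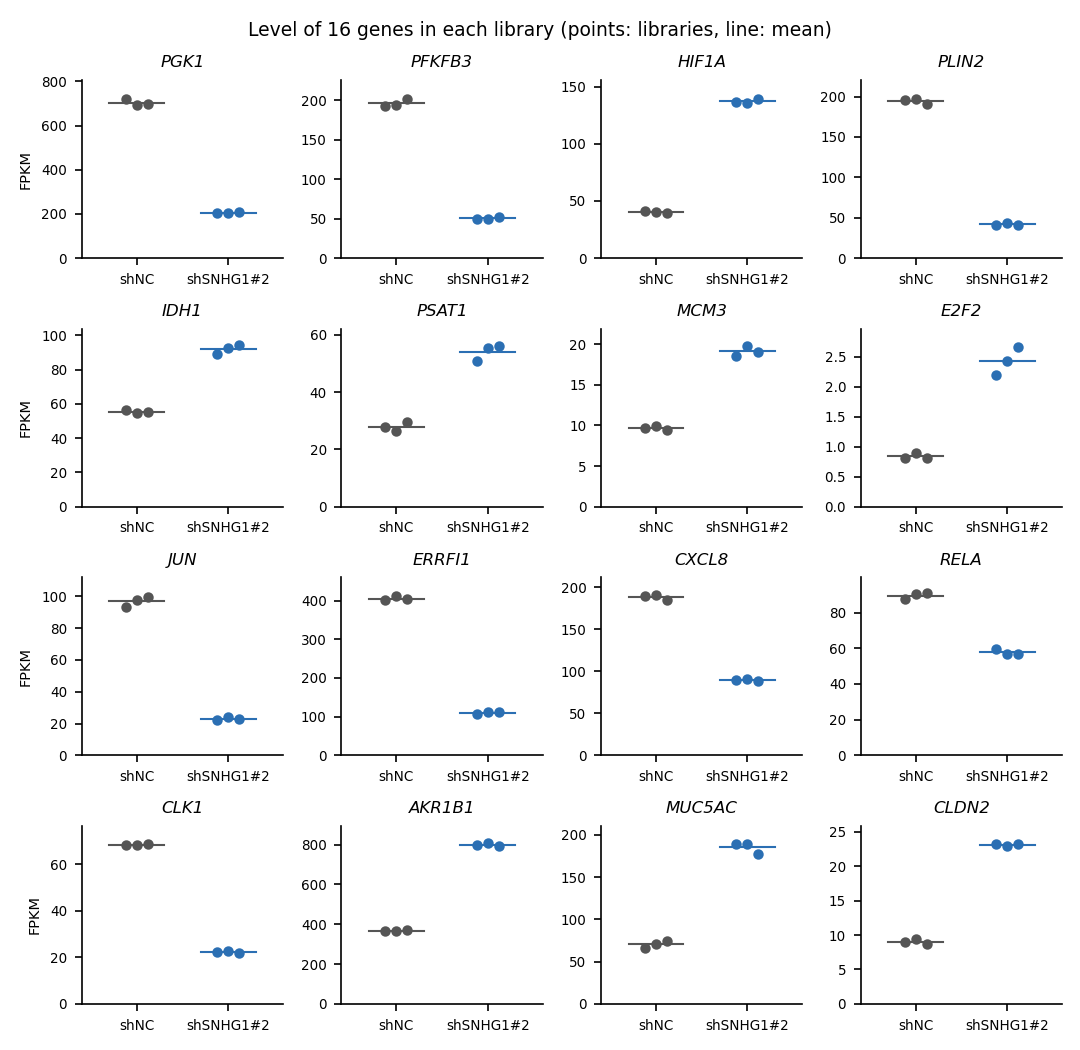
FPKM of 16 genes in the 3 shNC and 3 shSNHG1#2 libraries (points, with a line at the mean, axes from 0). In each panel the points of the groups do not overlap. JUN, PGK1, PFKFB3, ERRFI1, PLIN2 and CLK1 are low and HIF1A, E2F2, MUC5AC and CLDN2 are high with shSNHG1#2.

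Cell cycle genes rose, with few exceptions. E2F factors switch on the genes of DNA synthesis at the end of G1, and a later programme of mitosis genes carries CCAAT boxes. Of 41 tested replication and G1/S genes 37 were higher and 0 lower (median 0.70), and of 42 mitosis genes 38 were higher and 1 lower (median 0.43). Promoters of MCM3, a subunit of the replicative helicase, and of the transcription factor gene E2F1 are shown as examples that rose and that hold an E2F form, TTCCCGC or TTGGCGC on either strand, in capitals. MCM3 lies at chr6:52284743-52284992 and E2F1 at chr20:33686386-33686635, both on the minus strand.
MCM3: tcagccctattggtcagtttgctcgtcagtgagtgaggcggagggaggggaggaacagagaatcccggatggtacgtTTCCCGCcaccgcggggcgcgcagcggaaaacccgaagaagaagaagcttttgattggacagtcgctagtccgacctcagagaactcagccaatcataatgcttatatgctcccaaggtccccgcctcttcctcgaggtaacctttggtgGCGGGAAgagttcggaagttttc
E2F1: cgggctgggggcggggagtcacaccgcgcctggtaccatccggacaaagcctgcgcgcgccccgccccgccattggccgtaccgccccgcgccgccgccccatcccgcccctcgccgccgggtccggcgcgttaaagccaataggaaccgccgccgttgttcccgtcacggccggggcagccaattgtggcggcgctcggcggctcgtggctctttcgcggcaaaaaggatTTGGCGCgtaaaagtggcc
MCM3 has matches 173 and 23 bases before the start and E2F1 has 1 at 19 bases. Over all listed promoters of tested genes 11.5% hold either form, and of 33 replication promoters 18 do (54.5%), while of 34 mitosis promoters 5 do (14.7%). The letters CCAAT are in 34.3% of all these promoters, 26 of 34 mitosis promoters (76.5%) and 19 of 33 replication promoters (57.6%).

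MCM3 stood at 9.73, 9.88 and 9.46 FPKM in shNC and 18.5, 19.8 and 19 FPKM in shSNHG1#2 (log2 fold change 0.90, SE 0.04, adjusted p = 2.7e-08), and CDC6, which loads the helicase, at 5.59, 5.41 and 5.75 FPKM in shNC and 12.8, 12.8 and 13.8 FPKM in shSNHG1#2 (log2 fold change 1.0, SE 0.05, adjusted p = 3.6e-08). E2F2 stood at 0.82, 0.89 and 0.81 FPKM in shNC and 2.2, 2.43 and 2.66 FPKM in shSNHG1#2 (log2 fold change 1.49, SE 0.09, adjusted p = 3.4e-07). All 3 genes were high in every shSNHG1#2 library. E2F1 stood at 3.45, 3.64 and 3.67 FPKM in shNC and 7.0, 6.82 and 7.34 FPKM in shSNHG1#2 (log2 fold change 0.82, adjusted p = 2.1e-06). In mitosis, PLK1, a kinase of centrosomes and kinetochores, rose 1.48-fold, CDC20, which activates the anaphase complex, 1.58-fold and INCENP, of the chromosomal passenger complex, 1.68-fold.

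Of 19 tested CDK inhibitor and G1 cyclin genes 8 rose, 2 fell and 9 did not pass the test. CCND3, a D-type cyclin, stood at 41.7, 46 and 50.2 FPKM in shNC and 92, 87.6 and 88.9 FPKM in shSNHG1#2 (log2 fold change 0.89, SE 0.05, adjusted p = 3.3e-07) and CDK2 at 10.1, 10.04 and 11.4 FPKM in shNC and 17.8, 19.7 and 17.8 FPKM in shSNHG1#2 (log2 fold change 0.75, adjusted p = 1.6e-06). CDKN2C, an inhibitor of CDK4 and CDK6, stood at 3.33, 4.09 and 3.57 FPKM in shNC and 7.67, 7.58 and 7.46 FPKM in shSNHG1#2 (log2 fold change 0.98, adjusted p = 2.0e-06) and CDKN1A, the inhibitor p21, at 102, 104 and 106 FPKM in shNC and 167, 163 and 163 FPKM in shSNHG1#2 (log2 fold change 0.60, adjusted p = 3.6e-07). CDKN1B, the inhibitor p27, was lower, at 42.4, 44.7 and 43.6 FPKM in shNC and 33.5, 33.2 and 33.3 FPKM in shSNHG1#2 (log2 fold change -0.43, adjusted p = 2.5e-06). Of 26 tested clustered histone genes 14 rose and 2 fell. HIST1H2BK stood at 29.9, 29.2 and 27.9 FPKM in shNC and 74.3, 61.6 and 55.7 FPKM in shSNHG1#2 (log2 fold change 1.03, adjusted p = 3.6e-06). Counts of histone copies are uncertain, since their sequences are close to each other.

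Genes of DNA repair, some of which act on the crosslinks that platinum drugs leave, rose more often than they fell. Of 32 Fanconi and homologous recombination genes 22 were higher and 5 lower. EXO1, a resection nuclease, stood at 3.3, 3.21 and 3.29 FPKM in shNC and 6.66, 6.39 and 6.39 FPKM in shSNHG1#2 (log2 fold change 0.92, adjusted p = 1.9e-06). Of 34 excision and mismatch repair genes 18 were higher and 5 lower. PARP2, an enzyme that senses strand breaks, stood at 8.41, 9.17 and 7.93 FPKM in shNC and 14.8, 15 and 15.5 FPKM in shSNHG1#2 (log2 fold change 0.75, SE 0.07, adjusted p = 1.0e-05). In both EXO1 and PARP2 every shSNHG1#2 library was above every shNC library. TDG, a thymine DNA glycosylase, fell 1.41-fold and ERCC6, of transcription-coupled repair, 1.59-fold by counts. For ERCC6 the FPKM values overlapped, at 4.27, 4.66 and 5.48 FPKM in shNC and 4.15, 5.67 and 3.5 FPKM in shSNHG1#2. ERCC1, the nuclease partner often measured with platinum response, stood at 41.2, 40.9 and 41.5 FPKM in shNC and 40.05, 44 and 38.3 FPKM in shSNHG1#2 and did not pass (log2 fold change -0.04, adjusted p = 0.37), though it was above shNC with scaling by the totals of features with a symbol (0.11, adjusted p = 0.020).

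Of 23 tested drug transport and detoxification genes 7 were higher and 6 lower, near the shares over all genes, and with scaling by the totals of features with a symbol 13 were higher and 2 lower. The copper transporter gene SLC31A1, which also admits platinum, stood at 4.97, 4.65 and 4.82 FPKM in shNC and 7.8, 7.89 and 8.24 FPKM in shSNHG1#2 (log2 fold change 0.65, SE 0.04, adjusted p = 5.2e-07). ATP7A, a copper export pump, stood at 9.26, 9.19 and 8.97 FPKM in shNC and 6.41, 6.68 and 6.93 FPKM in shSNHG1#2 (log2 fold change -0.50, adjusted p = 4.4e-06). SLC31A1 was thus higher and ATP7A lower in every shSNHG1#2 library.

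Of 31 BCL2 family and caspase genes 7 were higher and 9 lower, near the shares over all genes (24.4% and 23.6%), and with scaling by the totals of features with a symbol 16 were higher and 2 lower. BCL2L2, which protects from death, stood at 13.7, 14 and 13.6 FPKM in shNC and 7.83, 7.27 and 8.28 FPKM in shSNHG1#2 (log2 fold change -0.88, adjusted p = 1.6e-05). BMF and BAK1, which promote it, stood at 1.14, 1.09 and 1.05 FPKM in shNC and 2.05, 2.57 and 2.39 FPKM in shSNHG1#2 (log2 fold change 1.05, adjusted p = 6.7e-06) and at 6.42, 6.39 and 7.15 FPKM in shNC and 10.04, 10 and 10 FPKM in shSNHG1#2 (log2 fold change 0.52, adjusted p = 5.0e-05). BCL2L2 was low and both others were high in every shSNHG1#2 library. Among 30 p53 targets 17 rose and 7 fell, with TP53INP1, a stress protein of that pathway, 1.63-fold higher and TNFRSF10D, a decoy receptor for TRAIL, 1.5-fold lower.

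Early response genes, which cells switch on within minutes of a growth factor or stress signal, were mostly lower. Of 28 tested members 19 were lower and 2 higher, with a median log2 fold change of -0.99. JUN, an AP-1 subunit, stood at 93.4, 97.6 and 99.8 FPKM in shNC and 22.5, 23.8 and 22.6 FPKM in shSNHG1#2 (log2 fold change -2.14, SE 0.08, adjusted p = 7.8e-09). ATF3, a stress factor that pairs with JUN, stood at 34, 35.7 and 34.3 FPKM in shNC and 16.4, 16.8 and 16 FPKM in shSNHG1#2 (log2 fold change -1.15, adjusted p = 7.7e-09), and SRF, which drives many of these genes, at 19.1, 19.5 and 19.9 FPKM in shNC and 10.7, 10.5 and 11.2 FPKM in shSNHG1#2 (log2 fold change -0.89, adjusted p = 3.9e-08). All 3 were low in every shSNHG1#2 library. The negative regulators of the same signals split. Of 19 ERK feedback genes 9 fell and 8 rose. ERRFI1, an inhibitor of EGFR, stood at 400.3, 411 and 403 FPKM in shNC and 106, 111 and 113 FPKM in shSNHG1#2 (log2 fold change -2.0, SE 0.03, adjusted p = 1.2e-11), and DUSP1, a MAP kinase phosphatase, at 217, 218 and 226 FPKM in shNC and 47.2, 44.8 and 44.4 FPKM in shSNHG1#2 (log2 fold change -2.32, SE 0.05, adjusted p = 2.4e-10). PHLDA1 rose, at 16.7, 17.6 and 18 FPKM in shNC and 35.4, 35 and 35.7 FPKM in shSNHG1#2 (log2 fold change 0.96, SE 0.03, adjusted p = 2.9e-09).

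Growth factor genes went both ways. Of 37 receptor tyrosine kinase and ligand genes 18 fell and 9 rose. With scaling by the totals of features with a symbol 15 of 38 fell and 14 rose. EGFR stood at 67.9, 66.1 and 65.5 FPKM in shNC and 45.3, 44.7 and 46 FPKM in shSNHG1#2 (log2 fold change -0.61, adjusted p = 3.5e-08) and EFNA1, an ephrin ligand, at 78.2, 80.5 and 81.8 FPKM in shNC and 32.1, 34.4 and 30.8 FPKM in shSNHG1#2 (log2 fold change -1.39, SE 0.04, adjusted p = 1.9e-09). FGF2, a fibroblast growth factor, moved up, at 9.4, 9.42 and 9.38 FPKM in shNC and 18.4, 20.2 and 20.2 FPKM in shSNHG1#2 (log2 fold change 0.99, SE 0.04, adjusted p = 7.8e-09). Genes of the Hippo pathway and targets of its effector YAP fell in 13 of 21 and rose in 3. CYR61, a matricellular protein and textbook YAP target, stood at 41.8, 42.4 and 43.4 FPKM in shNC and 10.04, 9.52 and 10.02 FPKM in shSNHG1#2 (log2 fold change -2.15, SE 0.11, adjusted p = 1.0e-07), CTGF fell 2.47-fold and AMOTL2, a scaffold that restrains YAP, fell 1.85-fold. In each of these 3 genes the groups did not overlap.

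Inflammatory and interferon genes were lower together. In the NF-kB list 23 of 29 members fell and 2 rose, and of 50 interferon-stimulated genes 38 fell and 5 rose (median -0.42). CXCL8, the neutrophil chemokine interleukin 8, stood at 190.1, 191 and 185 FPKM in shNC and 89.1, 90.6 and 88.3 FPKM in shSNHG1#2 (log2 fold change -1.18, SE 0.03, adjusted p = 1.1e-10). TNFAIP3, which shuts NF-kB signals off, stood at 76.6, 77.3 and 77.2 FPKM in shNC and 45.2, 46.2 and 46 FPKM in shSNHG1#2 (log2 fold change -0.85, SE 0.02, adjusted p = 5.9e-10) and RELA, an NF-kB subunit, at 87.3, 90.3 and 90.7 FPKM in shNC and 59.7, 56.8 and 56.7 FPKM in shSNHG1#2 (log2 fold change -0.70, SE 0.03, adjusted p = 2.0e-08). The 3 genes were low in every shSNHG1#2 library. CXCL5, another neutrophil chemokine, was the exception among the genes named, at 286, 271 and 279 FPKM in shNC and 443, 448 and 461 FPKM in shSNHG1#2 (log2 fold change 0.63, adjusted p = 3.2e-08).

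GBP1, a guanylate binding protein, stood at 26.1, 25.4 and 26.2 FPKM in shNC and 10.5, 10.9 and 11.6 FPKM in shSNHG1#2 (log2 fold change -1.31, SE 0.04, adjusted p = 3.1e-09), and DDX58, the RNA sensor RIG-I, at 119, 116 and 116 FPKM in shNC and 66.7, 69.5 and 72 FPKM in shSNHG1#2 (log2 fold change -0.78, adjusted p = 4.0e-08). Antigen presentation genes had 14 of 23 lower and 2 higher. TAP1, the peptide transporter, stood at 77.6, 80.7 and 84.1 FPKM in shNC and 61.9, 61.2 and 60.01 FPKM in shSNHG1#2 (log2 fold change -0.48, adjusted p = 5.0e-06) and B2M, the light chain of MHC class I, at 1158, 1148 and 1130.5 FPKM in shNC and 1024, 1005 and 995 FPKM in shSNHG1#2 (log2 fold change -0.27, adjusted p = 1.6e-05). MICB, a stress ligand of natural killer cells, rose 1.9-fold.

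Clock genes fell more often than they rose, with 11 of 22 lower and 5 higher. BHLHE40, whose promoter is shown above, stood at 348, 368 and 353 FPKM in shNC and 109, 114 and 108 FPKM in shSNHG1#2 (log2 fold change -1.75, SE 0.03, adjusted p = 2.2e-11). NFIL3, another repressor of the clock output, fell 2.38-fold and PER2 1.87-fold, while CRY1, the partner of PER proteins, rose, at 2.65, 2.66 and 2.7 FPKM in shNC and 5.72, 5.36 and 5.46 FPKM in shSNHG1#2 (log2 fold change 0.99, adjusted p = 3.2e-06). Each of these genes was apart between groups. Of 38 TGF-beta and BMP genes 16 fell and 9 rose, but 12 fell and 13 rose with scaling by the totals of features with a symbol. Among them were ID4, an inhibitor of bHLH factors, at 4.13, 4.09 and 4.13 FPKM in shNC and 7.5, 8.89 and 7.8 FPKM in shSNHG1#2 (log2 fold change 0.95, adjusted p = 1.0e-06) and BMPR2, a BMP receptor, at 14.3, 15.2 and 14.5 FPKM in shNC and 9.2, 8.77 and 9.34 FPKM in shSNHG1#2 (log2 fold change -0.55, adjusted p = 2.6e-06).

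Endoplasmic reticulum chaperones fell in 17 of 25 and rose in 4, but with scaling by the totals of features with a symbol 9 fell and 7 rose. CALR, a lectin chaperone, stood at 525, 534 and 509.7 FPKM in shNC and 369, 357 and 364 FPKM in shSNHG1#2 (log2 fold change -0.59, SE 0.03, adjusted p = 8.3e-08), and HSP90B1 fell 1.34-fold. In the cytosol, 6 of 8 tested subunits of TRiC, the chaperonin that folds actin and tubulin, rose and 0 fell, with CCT7 at 139, 138 and 137 FPKM in shNC and 185, 183 and 180.2 FPKM in shSNHG1#2 (log2 fold change 0.34, adjusted p = 1.9e-06). Heat shock genes went in both directions, 12 higher and 14 lower of 35 (14 and 13 with library totals). HSPA1B, the inducible HSP70, stood at 100.1, 101 and 107 FPKM in shNC and 32.3, 32.4 and 30.02 FPKM in shSNHG1#2 (log2 fold change -1.77, adjusted p = 3.9e-10) and DNAJB5, a co-chaperone, at 1.12, 1.18 and 1.16 FPKM in shNC and 3.84, 4.12 and 3.53 FPKM in shSNHG1#2 (log2 fold change 1.56, SE 0.09, adjusted p = 1.9e-07). HSPA1B reads are uncertain, since HSPA1A is a near-identical copy.

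Stress response lists held both directions. Of 29 ATF4 response genes 16 fell and 10 rose, with TRIB3, a pseudokinase of that response, at 81, 81.7 and 84.5 FPKM in shNC and 39.7, 42.2 and 38 FPKM in shSNHG1#2 (log2 fold change -1.13, adjusted p = 2.4e-09). GDF15, a secreted stress cytokine, stood at 286, 289.8 and 298 FPKM in shNC and 139, 130.5 and 128 FPKM in shSNHG1#2 (log2 fold change -1.15, adjusted p = 4.4e-09). Of 32 NRF2 and glutathione genes 14 fell and 11 rose, but 13 fell and 15 rose with library totals. GCLC, the catalytic subunit that limits glutathione synthesis, stood at 149.9, 152 and 149 FPKM in shNC and 58.4, 58.7 and 58 FPKM in shSNHG1#2 (log2 fold change -1.41, SE 0.03, adjusted p = 5.8e-11), and HMOX1, heme oxygenase, at 118, 122 and 126 FPKM in shNC and 63.9, 58.2 and 61.2 FPKM in shSNHG1#2 (log2 fold change -1.07, adjusted p = 3.6e-08). Both were low in every shSNHG1#2 library. NFE2L2, which encodes NRF2 itself, fell 1.7-fold. SQSTM1, an autophagy receptor, fell 1.45-fold. Of 47 autophagy and lysosome genes 15 fell and 10 rose, but 11 fell and 13 rose with library totals.

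Splicing factor and ribosomal protein genes fell more often than they rose with TMM scaling. Of 41 tested messenger RNA export and splicing factors 27 fell and 4 rose (median -0.17), and of 84 cytosolic ribosomal protein genes 47 fell and 2 rose (median -0.16). With scaling by the totals of features with a symbol these medians were -0.01 and -0.002, so the lists were lower relative to other genes and level relative to those totals, with 10 higher and 15 lower among the splicing factors and 14 higher and 11 lower among the ribosomal protein genes. CLK1, a kinase that phosphorylates splicing factors, stood at 68.1, 68.3 and 68.5 FPKM in shNC and 22.5, 22.8 and 22 FPKM in shSNHG1#2 (log2 fold change -1.66, SE 0.03, adjusted p = 2.7e-11), and its relative CLK4 fell 1.83-fold. SRSF3 and SRSF6, splicing factors of the SR family, fell 1.48-fold and 1.62-fold. Of 53 ribosome biogenesis genes 20 fell and 13 rose, but 11 fell and 19 rose with library totals and 7 fell and 27 rose with totals of features with a symbol. FBL, the methyltransferase that box C/D small nucleolar RNAs guide, stood at 353, 362 and 358 FPKM in shNC and 245, 227 and 229.6 FPKM in shSNHG1#2 (log2 fold change -0.68, SE 0.04, adjusted p = 1.3e-07). Among 19 tested host genes of small nucleolar RNA 5 fell and 4 rose (4 and 5 with library totals), SNHG7 at 9.22, 8.63 and 8.61 FPKM in shNC and 5.33, 4.94 and 4.54 FPKM in shSNHG1#2 (log2 fold change -0.76, adjusted p = 9.1e-05) and SNHG12 at 22.8, 22.9 and 23.7 FPKM in shNC and 17.3, 17.2 and 18.6 FPKM in shSNHG1#2 (log2 fold change -0.39, adjusted p = 7.7e-04).

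Reductases and dehydrogenases that clear aldehydes were among the most abundant transcripts. Of 16 aldehyde dehydrogenase genes 13 rose and 2 fell (median 0.44). ALDH3A1 stood at 815, 824 and 833 FPKM in shNC and 1579, 1497 and 1472 FPKM in shSNHG1#2 (log2 fold change 0.82, SE 0.03, adjusted p = 1.6e-08), and ALDH1A1 at 944, 919 and 921 FPKM in shNC and 1384, 1364 and 1353 FPKM in shSNHG1#2 (log2 fold change 0.49, SE 0.02, adjusted p = 7.0e-08). Of 10 aldo-keto reductases 5 rose and 3 fell. AKR1B1, aldose reductase, stood at 368, 368 and 369.7 FPKM in shNC and 799.8, 806 and 792 FPKM in shSNHG1#2 (log2 fold change 1.05, SE 0.03, adjusted p = 2.9e-09), while AKR1C2 stood at 2111, 2104 and 2079 FPKM in shNC and 1324, 1330.1 and 1315 FPKM in shSNHG1#2 (log2 fold change -0.63, SE 0.02, adjusted p = 2.6e-09). Values of AKR1C2 are uncertain, since AKR1C members are close copies.

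Epithelial, mucin and matrix genes changed in part. Of 15 mucin and goblet genes 9 rose and 3 fell (median 0.53). MUC5AC, a gel-forming mucin, stood at 66.4, 70.5 and 74.7 FPKM in shNC and 189, 189 and 178 FPKM in shSNHG1#2 (log2 fold change 1.34, SE 0.04, adjusted p = 7.4e-10), and MUC5B at 42.2, 50.2 and 48.6 FPKM in shNC and 84.6, 83.1 and 84.1 FPKM in shSNHG1#2 (log2 fold change 0.79, adjusted p = 1.8e-07). EHF, an ETS factor of epithelia, stood at 6.17, 6.91 and 5.98 FPKM in shNC and 18.6, 16.3 and 17 FPKM in shSNHG1#2 (log2 fold change 1.62, SE 0.04, adjusted p = 4.9e-10), whereas ELF3, another such factor, stood at 159.9, 158 and 156 FPKM in shNC and 78.7, 82.3 and 81.1 FPKM in shSNHG1#2 (log2 fold change -0.97, SE 0.03, adjusted p = 2.6e-09). The claudin gene CLDN2, of leaky tight junctions, stood at 9.04, 9.42 and 8.72 FPKM in shNC and 23.2, 22.9 and 23.2 FPKM in shSNHG1#2 (log2 fold change 1.28, SE 0.04, adjusted p = 1.7e-09) and DSP, of desmosomes, at 51.6, 52.5 and 51.3 FPKM in shNC and 27.7, 28.5 and 29.5 FPKM in shSNHG1#2 (log2 fold change -0.93, SE 0.04, adjusted p = 1.2e-08). In these genes MUC5AC, MUC5B, EHF and CLDN2 were high and ELF3 and DSP low in every shSNHG1#2 library. Over 38 keratin and junction genes 13 rose and 13 fell.

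Mesenchymal genes VIM, of intermediate filaments, and FN1, fibronectin, fell 1.59-fold and 1.84-fold. Of 28 list members 11 were lower and 5 higher, but 7 and 6 with scaling by the totals of features with a symbol. Matrix genes had 19 of 66 higher and 13 lower, against 24.4% higher and 23.6% lower over all tested genes. NID2, a basement membrane linker, stood at 1.05, 0.98 and 1.05 FPKM in shNC and 4.1, 3.58 and 3.84 FPKM in shSNHG1#2 (log2 fold change 1.83, SE 0.08, adjusted p = 3.2e-08), and LOXL2, a collagen crosslinking oxidase, at 162, 168 and 171 FPKM in shNC and 86.3, 82 and 82.2 FPKM in shSNHG1#2 (log2 fold change -1.03, SE 0.04, adjusted p = 9.8e-09). NID2 was high and LOXL2 low in every shSNHG1#2 library. HOX genes, which set position along the body axis, rose in 15 of 32 tested and fell in 0 (median 0.44), among them HOXC13 at 3.79, 3.72 and 4.23 FPKM in shNC and 7.07, 6.68 and 6.6 FPKM in shSNHG1#2 (log2 fold change 0.73, adjusted p = 2.2e-05).

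Iron genes moved both ways. CP, ceruloplasmin, which oxidises iron for export, stood at 267, 269.6 and 262 FPKM in shNC and 79.7, 85.5 and 84.7 FPKM in shSNHG1#2 (log2 fold change -1.68, SE 0.03, adjusted p = 6.2e-11). SLC40A1, the iron exporter ferroportin, rose, at 4.27, 5.03 and 4.84 FPKM in shNC and 9.16, 10 and 9.94 FPKM in shSNHG1#2 (log2 fold change 0.98, SE 0.07, adjusted p = 1.0e-06), and TFRC, the transferrin receptor, fell, at 51.7, 49.1 and 50.9 FPKM in shNC and 32.6, 35.6 and 35.5 FPKM in shSNHG1#2 (log2 fold change -0.62, adjusted p = 1.6e-07). LCN2, which binds bacterial iron carriers, stood at 91.6, 93.2 and 92.7 FPKM in shNC and 204, 187 and 177 FPKM in shSNHG1#2 (log2 fold change 0.97, adjusted p = 3.0e-07). Groups did not overlap in any of these 4 genes, and of 21 list members 9 fell and 7 rose.

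Some genes with large folds lay outside these lists. CD22, an inhibitory receptor best known from B cells, stood at 0.46, 0.49 and 0.45 FPKM in shNC and 3.17, 2.81 and 2.87 FPKM in shSNHG1#2 (log2 fold change 2.58, SE 0.13, adjusted p = 6.2e-08). GRHL1, a grainyhead factor of epithelia, stood at 0.21, 0.26 and 0.38 FPKM in shNC and 1.35, 1.67 and 1.51 FPKM in shSNHG1#2 (log2 fold change 2.26, SE 0.21, adjusted p = 7.4e-06), and UGT1A1, which conjugates bilirubin, at 3.35, 2.67 and 2.73 FPKM in shNC and 12.5, 14.3 and 12.5 FPKM in shSNHG1#2 (log2 fold change 2.1, SE 0.10, adjusted p = 4.0e-08). All 3 rose from low levels. UGT1A1 is uncertain, since it shares exons with the rest of its gene family. CXCR4, the receptor of the chemokine CXCL12, stood at 9.17, 8.56 and 7.9 FPKM in shNC and 1.98, 2.04 and 1.71 FPKM in shSNHG1#2 (log2 fold change -2.22, SE 0.19, adjusted p = 3.6e-06), and NOL3, an inhibitor of cell death, at 30.4, 27.5 and 26.7 FPKM in shNC and 6.76, 4.47 and 5.01 FPKM in shSNHG1#2 (log2 fold change -2.28, SE 0.12, adjusted p = 9.6e-08), both low with shSNHG1#2.

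The hairpins were then set against each other directly, since both comparisons with shNC share the shNC libraries. Of 17573 tested genes with a symbol 564 differed between shSNHG1#2 and shSNHG1#1 (3.21%), 359 higher with shSNHG1#2 (2.04%) and 205 lower (1.17%). The median fold of these genes was 1.19, and 5 genes were at least 2-fold higher (0.0285%) and 30 at least 2-fold lower (0.171%). At least 8-fold lower were 21 genes, and 0 were at least 8-fold higher. How many of them are lung, neutrophil, macrophage or blood transcripts was not counted. Replicate 1 of shSNHG1#1 held most lung and blood transcripts, but replicates 2 and 3 held them too. Neutrophil genes summed to 14.2 and 12.97 CPM in these replicates, against 1.18 to 1.7 CPM in shSNHG1#2. Blood and vessel genes summed to 5.7 and 4.93 CPM, against 0.714 to 1.43 CPM. Leaving out replicate 1 thus does not clear such transcripts, and their number among the genes still called was not counted. Without shSNHG1#1 replicate 1, 269 genes were higher, 248 of them shared with the 359, and 127 lower, 107 of them shared with the 205. These counts rest on each library, for over all features 211 were lower (1.12%), but 105, 57 and 76 without shSNHG1#2 replicates 1, 2 and 3, 133 without shSNHG1#1 replicate 1 and 92 without shSNHG1#1 replicate 3. Of the 359 genes, 247 were below shNC with shSNHG1#2, 56 above it and 56 not past the threshold. This split, the median fold and the counts by fold include shSNHG1#1 replicate 1 and were not repeated without it.

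Hypoxia genes were prominent among those higher with shSNHG1#2 than with shSNHG1#1. Of 40 hypoxia targets outside glycolysis 17 were higher with shSNHG1#2 than with shSNHG1#1 and 0 lower, and without shSNHG1#1 replicate 1 the counts were 13 and 0. IGFBP3, which binds insulin-like growth factors, stood at 2126, 2155 and 2120.3 FPKM in shNC, 556, 549 and 568 FPKM in shSNHG1#1 and 909, 913 and 904 FPKM in shSNHG1#2 (log2 fold change 0.67 against shSNHG1#1, SE 0.02, adjusted p = 2.0e-07). LOX, a lysyl oxidase, stood at 7.97, 8.07 and 8.44 FPKM in shNC, 2.13, 2.26 and 2.16 FPKM in shSNHG1#1 and 4.35, 4.18 and 4.24 FPKM in shSNHG1#2 (log2 fold change 0.94 against shSNHG1#1, SE 0.06, adjusted p = 2.4e-05). In both genes shNC was highest, shSNHG1#1 lowest and shSNHG1#2 between them, with no overlap. CACNA1B, a calcium channel subunit, had the same order, at 1.99, 2.05 and 2.13 FPKM in shNC, 0.35, 0.38 and 0.39 FPKM in shSNHG1#1 and 0.75, 0.56 and 0.80 FPKM in shSNHG1#2 (log2 fold change 0.86 against shSNHG1#1, SE 0.11, adjusted p = 0.0017).

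Interferon and complement genes were also higher with shSNHG1#2 than with shSNHG1#1. Of 50 interferon-stimulated genes 33 were higher with shSNHG1#2 than with shSNHG1#1 and 0 lower, and without shSNHG1#1 replicate 1 the counts were 30 and 0. OAS2, an antiviral synthetase, stood at 97.7, 94.8 and 92.5 FPKM in shNC, 57.6, 56.8 and 57.5 FPKM in shSNHG1#1 and 79, 79.6 and 81.9 FPKM in shSNHG1#2 (log2 fold change 0.43 against shSNHG1#1, SE 0.02, adjusted p = 1.4e-05). The complement protease gene C1R stood at 155, 156 and 156 FPKM in shNC, 126, 120.4 and 125 FPKM in shSNHG1#1 and 181, 172 and 172 FPKM in shSNHG1#2 (log2 fold change 0.46 against shSNHG1#1, SE 0.03, adjusted p = 2.4e-05), and complement factor B, CFB, at 138, 139 and 135 FPKM in shNC, 113, 109.6 and 111 FPKM in shSNHG1#1 and 151, 149 and 147 FPKM in shSNHG1#2 (log2 fold change 0.40 against shSNHG1#1, SE 0.03, adjusted p = 3.9e-05). OAS2 lay between the other groups, whereas C1R and CFB lay above both. Of 18 complement genes 6 were higher than with shSNHG1#1 and 0 lower, and without replicate 1 of shSNHG1#1 they were 5 and 1. Of 23 antigen presentation genes 8 were higher and 1 lower, and 6 and 0 without it. SERPINB7, a serine protease inhibitor of epithelia, stood at 2.59, 2.21 and 2.28 FPKM in shNC, 2.57, 2.82 and 3.18 FPKM in shSNHG1#1 and 5.11, 4.94 and 4.04 FPKM in shSNHG1#2 (log2 fold change 0.71 against shSNHG1#1, SE 0.13, adjusted p = 0.013), with the shSNHG1#2 libraries above both other groups. For SERPINB7 the difference between the hairpins missed the threshold when shSNHG1#1 replicate 1 (edgeR adjusted p = 0.0524), shSNHG1#2 replicate 1 (0.0507) or shSNHG1#2 replicate 2 (0.0596) was left out.

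Other genes were apart in both directions. MUC16, the membrane mucin that carries the antigen CA125, stood at 1.14, 1.16 and 0.99 FPKM in shNC, 1.76, 1.66 and 1.7 FPKM in shSNHG1#1 and 2.61, 2.79 and 2.87 FPKM in shSNHG1#2 (log2 fold change 0.81 against shSNHG1#1, SE 0.06, adjusted p = 6.9e-05), lowest in shNC and highest with shSNHG1#2. MT1X, a metallothionein, stood at 283, 303 and 269 FPKM in shNC, 143, 132 and 141 FPKM in shSNHG1#1 and 235, 212 and 225 FPKM in shSNHG1#2 (log2 fold change 0.67 against shSNHG1#1, SE 0.06, adjusted p = 1.5e-04), and TFF1, a trefoil peptide of mucous cells, at 24, 22.4 and 21.9 FPKM in shNC, 8.02, 9.04 and 6.62 FPKM in shSNHG1#1 and 15.3, 13.2 and 14.7 FPKM in shSNHG1#2 (log2 fold change 0.85 against shSNHG1#1, SE 0.13, adjusted p = 0.0046), both between the other groups. EFEMP1, a fibulin of the matrix, was above shNC with both hairpins and less so with shSNHG1#2, at 1.69, 1.67 and 1.85 FPKM in shNC, 6.9, 6.15 and 6.17 FPKM in shSNHG1#1 and 4.01, 3.89 and 4.33 FPKM in shSNHG1#2 (log2 fold change -0.64 against shSNHG1#1, SE 0.08, adjusted p = 0.0012). CXCL1, a neutrophil chemokine, was below both other groups, at 142, 145 and 141 FPKM in shNC, 154, 147 and 151 FPKM in shSNHG1#1 and 127, 121 and 125 FPKM in shSNHG1#2 (log2 fold change -0.30 against shSNHG1#1, SE 0.03, adjusted p = 3.4e-04). Of 29 NF-kB and inflammatory genes 8 were lower than with shSNHG1#1 and 1 higher, and without shSNHG1#1 replicate 1 the counts were 5 and 1.

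**Figure D5:**
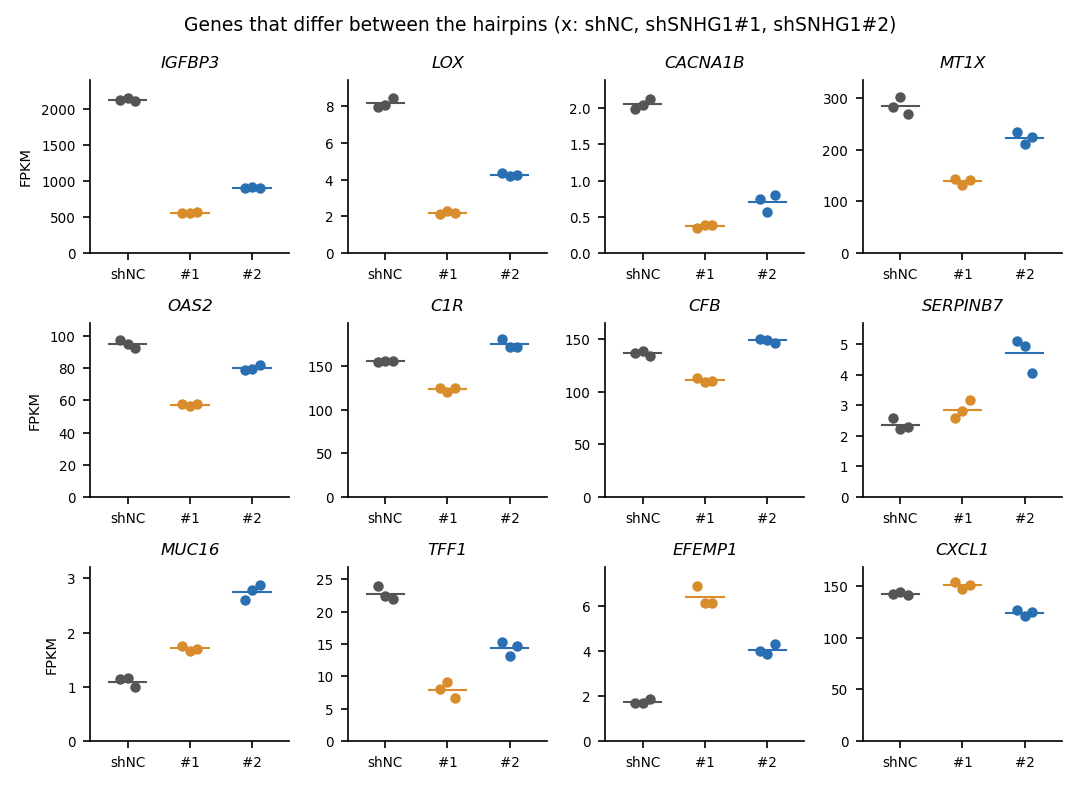
FPKM of 12 genes in the 3 libraries of each group (points, with a line at the mean, axes from 0), for shNC, shSNHG1#1 (#1) and shSNHG1#2 (#2). IGFBP3, LOX, CACNA1B, MT1X, OAS2 and TFF1 lie between the other groups with shSNHG1#2, C1R, CFB, SERPINB7 and MUC16 lie above both, and CXCL1 lies below both. EFEMP1 lies between, above shNC.

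Isoform use was examined through the transcript length that the deposited count and FPKM of a gene imply together. Of 11326 genes with at least 100 counts and 1 FPKM in every library, the implied lengths of the groups did not overlap for 30.2%, and 78 genes also differed at least 1.3-fold, 32 longer and 46 shorter with shSNHG1#2. The genes named here were chosen after their values were seen. TAF9B, a subunit of transcription complexes, had implied lengths of 9406, 9345 and 9332 bases in shNC and 5645, 5635 and 5964 bases in shSNHG1#2. RANBP10, a Ran binding protein, had 916, 918 and 1016 bases in shNC and 556, 575 and 562 bases in shSNHG1#2. PDK3, another pyruvate dehydrogenase kinase, had 5707, 5217 and 5412 bases in shNC and 8102, 7880 and 9178 bases in shSNHG1#2. TAF9B and RANBP10 were shorter and PDK3 longer in every shSNHG1#2 library. The isoforms behind these shifts were not resolved.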

How the data were processed

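The authors deposited 1 table with an estimated count and a level per gene and library, for 9 libraries of RNA from Weri-RB1/CRP cells made with a BGI500 protocol, per the labels. The submitters' processing notes name RSEM 1.2.12, HISAT2 2.0.4, DESeq2 1.4.5 and Bowtie2 2.2.5, without saying what each did. Build, annotation and strand use: not given in the sources used here. The level columns carry only the word exp per the file headers, and the values behave as FPKM computed by the authors. Per-gene values can be uncertain for close copies and overlapping genes.

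Groups follow the labels. Estimated counts were rounded, and genes were tested with the quasi-likelihood F test of edgeR 4.0.16 in R 4.3.3 on the 9 libraries together, with a term for group, TMM scaling, filterByExpr and Benjamini-Hochberg adjustment over 18767 features. The threshold was an adjusted p of 0.05. The 3804 features without a gene symbol, with 8.48% of counts in shNC and 14.1% in shSNHG1#2, stayed in the fit and are named nowhere. Total counts per library were 21502093 to 21606498, and the median biological coefficient of variation was 7.28%. The fit was tested on simulated data. Alternatives were other scalings, filters, DESeq2 1.42.0, only the groups compared, a replicate block and leaving out each library.

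The members and lists were chosen with earlier results of these data known. Named genes are the 15 highest and 15 lowest folds of each comparison (log2 CPM of 2 or more, groups apart), in each list the members of smallest p or largest fold, and the most abundant genes. Promoters are from RefSeq on GRCh38.p14, matched by gene ID for 13372 of 17573 tested genes, with the first listed start where a gene has several. Motifs were searched on both strands, and ACGTG also lies within CACGTG. Some genes are not reported here by name; they stayed in the fit and in the counts of the lists.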

Additional observations from a re-analysis of the deposited data

Results flagged for a closer look

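Features without a gene symbol took 14.1% of counts in shSNHG1#2 and 8.48% in shNC, a signal outside the genes reported. A single feature held most of it, with 11.9% of counts in shSNHG1#2 against 6.84% ± 0.263 (SD, n = 3) in shNC. Its identity was not resolved here. With these features left out of the fit, which was chosen after seeing the data, 8557 genes passed.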

How the results depend on the processing

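Over all features, 8669 passed for shSNHG1#2 against shNC and 586 for shSNHG1#2 against shSNHG1#1. Scaling by the totals of features with a symbol, added after seeing the data and fitted on those features alone, gave 6905 higher and 2414 lower for the first comparison. It moved 65 of 140 counts over lists by more than 1.5 times. With a mean of at least 1 FPKM required, 506 features differed at least 2-fold, against 992. For the hairpins against each other DESeq2 gave 977 features, 619 higher and 358 lower, and the fit on the 2 groups compared gave 386, with 110 lower. Leaving out 1 library gave 7676 to 7852 for the first comparison and 297 to 534 for the second, with 240 to 336 higher and 57 to 198 lower. Without shSNHG1#2 replicate 1, 2 or 3 the second comparison gave 105, 57 or 76 features lower, and without shSNHG1#1 replicate 1 or 3 it gave 133 or 92. Its total fell to 297 and 349 without shSNHG1#2 replicates 2 and 3 and to 351 without shSNHG1#1 replicate 3. With replicate number as a block 8421 features passed for the first comparison and 433 for the second, with 137 lower. The labels do not say whether the numbers pair the samples. Correlations of same-numbered libraries, as deviations from the group means, were -0.036 to 0.032, against -0.052 to 0.047 for other numbers. They cannot decide on pairing, since an effect shared by few genes would not show in them. Of 154 named gene values 151 kept their direction and side of the threshold under each alternative tried, the exceptions being EPAS1, ERCC1 and SERPINB7 between the hairpins. The causes of these changes were not tested.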

Other observations

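Solute carriers, the family of membrane transporters for small molecules, had 91 of 255 tested members higher and 51 lower with shSNHG1#2, against 24.4% higher and 23.6% lower over all tested genes. SLC26A9, an anion transporter of epithelia, stood at 0.37, 0.28 and 0.26 FPKM in shNC and 1.41, 1.24 and 1.34 FPKM in shSNHG1#2 (log2 fold change 2.03, SE 0.20, adjusted p = 1.1e-05). SLCO2B1, which takes up organic anions, stood at 0.72, 0.76 and 0.87 FPKM in shNC and 3.24, 3.39 and 3.44 FPKM in shSNHG1#2 (log2 fold change 1.91, SE 0.10, adjusted p = 7.1e-08). Both rose from low levels, with no overlap between the groups. Genes for long intergenic noncoding RNA had 34 of 302 tested members higher and 27 lower, both shares below those over all genes. Most of them lay at low levels, where fewer genes passed the test.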
